A study of Arabidopsis thaliana with 18 samples.

Results

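Cytochrome P450 and UDP-glycosyltransferase genes were followed in whole Arabidopsis plants in which DUO1, a germline MYB regulator of pollen, was switched on outside its normal place. The members were all probe sets assigned to a single gene whose symbol has the form of a CYP or UGT family name, 70 of the 22746 probe sets tested. They comprised 23 P450 genes and 47 UDP-glycosyltransferase genes, each with 1 probe set. The rule used symbols only, but it was set with earlier results of these data known. Of the P450 members 19 belonged to the CYP71B sub-family, and the others were CYP51G2, CYP78A9, CYP79A2 and CYP84A4. RefSeq lists 294 Arabidopsis genes with symbols of this form, 236 P450 and 58 UDP-glycosyltransferase genes, so the P450 members are a small and uneven sample of their family. RefSeq lists 2 of the members, CYP51G2 and CYP71B27, as transcribed pseudogenes.

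Cytochrome P450 enzymes are haem proteins that insert oxygen into small molecules, and plants use them to build hormones, sterols, lignin precursors, flavonoids and glucosinolates. UDP-glycosyltransferases pass a sugar from a UDP-sugar to such molecules, which commonly makes them more soluble, ready for storage in the vacuole, and often inactive as hormones. In many pathways a P450 enzyme adds or exposes the oxygen that a glycosyltransferase then conjugates, and both families are used by plants to handle hormones, defence compounds and foreign chemicals.

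The study compared induced plants with plants that were not induced at 6 h, 12 h and 24 h, with 3 ATH1 arrays in each of the 6 groups. All plants, in every group, were of the Col-0 background and carried a T-DNA with DUO1 in pMDC7, a vector whose promoter is activated by oestradiol, and all had been grown for 12 days at 22 C in constant light on plates with 20 ug/ml hygromycin before treatment. No group received the inducer without the construct, so DUO1 and treatment cannot be told apart. The labels do not say that replicates came from separate cultures, so the p-values measure the spread between these samples, which may be technical.

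The median signal of an array was 34.3 to 39.5, and between 72.3% and 83.6% of probe sets exceeded background, which was set per array at the highest signal of 27 bacterial control probe sets (3.30 to 10.1). DUO1 itself was not among the probe sets with a gene name. MGH3, the male germline histone H3 gene, had signals of 144 to 643 on the induced arrays, from 6 h on, and of 0.750 to 6.04 on the arrays without induction, where 8 of 9 were at or below background. Of 7 male germline and pollen markers measured, 2, 3 and 3 were called higher at 6 h, 12 h and 24 h. TET12, ACT12, ANX1 and ANX2 were not called at any time. The calls of MGH3 held in all 28 alternatives. The 6 h call of TET11 was lost in 2 of 27, with the 25S ribosomal RNA control as a covariate (adjusted p = 0.147) and with only the arrays compared (0.0515). The 12 h call of ACT11 was lost in 3 of 28 (up to 0.128). Leaf genes were high in all groups, with summed signals of LHCB4.1, LHCB4.2 and RCA of 9968 to 17557 in induced and 10068 to 17442 in not induced plants. None of these 3 was called between induced and not induced plants at any time. In not induced plants the sum was 14318 to 17442 at 6 h and 10068 to 11391 at 24 h. There LHCB4.2 was called lower at 24 h than at 12 h (log2 -0.78, adjusted p = 0.0106). The root gene PYK10 was high as well, whereas 3 of 4 root markers measured, EXPA7, EXPA18 and AT4G26010, fell at every time. The 6 h calls of EXPA18 (adjusted p = 0.0477) and EXPA7 (0.0316) were lost in 19 of 28 and 9 of 27 alternatives, among them leaving out any not induced 6 h array or replicate 1 or 3 of the induced 6 h plants, and the 12 h call of EXPA7 in 2, including without replicate 2 of the induced 12 h plants. AT4G26010, a peroxidase gene of roots, had 18.5, 23.7 and 10.6 in induced and 138, 199 and 185 in not induced plants at 24 h. The summed signal of the 4 root markers was 3182 to 3404 in induced and 4029 to 4363 in not induced plants at 24 h, and 3481 to 4146 in induced and 4292 to 4374 in not induced plants at 12 h, and the ranges overlapped at 6 h. Most of this sum was PYK10, with 3143 to 3360 in induced and 3801 to 4046 in not induced plants at 24 h. PYK10 was not called at any time (adjusted p = 0.684 at 12 h and 0.208 at 24 h). In whole plants fewer cells of a type and less RNA per cell cannot be told apart, and the part of the root markers in the results that follow was not tested.

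Most members had signal in these plants. On all 18 arrays 40 of the 70 members (57.1%) were above background, compared with 66.0% of all probe sets, and 25 were above it on some arrays. The other 5, CYP71B16, CYP71B30P, CYP71B31, CYP79A2 and UGT76E1, were at or below background on every array. CYP79A2 makes the first intermediate of benzyl glucosinolate, and its signals were 0.212 to 1.26 in induced and 0.289 to 1.24 in not induced plants. Among the P450 members 12 of 23 were above background throughout, and among the UDP-glycosyltransferase members 28 of 47. Averaged over the arrays, member signals ranged from 0.454 to 766 with a median of 25.1, where the median of all probe sets was 38.4. The spread between replicates, as the median SD of log2 signal within a group, was 0.189 for the 40 members above background throughout and 0.921 for the others. The log2 changes of the dim members were therefore poorly determined.

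Few members responded at 6 h and more at 24 h. A member was called where the adjusted p of the limma fit over all probe sets was under 0.05. At 6 h 1 of 70 members was called (1.43%, compared with 0.967% of all probe sets), and it rose, as did 0.572% of all probe sets. At 12 h 4 were called (5.71%, compared with 4.84%), of which 2 rose and 2 fell, beside 2.91% and 1.93% of all probe sets. At 24 h 9 were called (12.9%, compared with 8.33%), of which 3 rose and 6 fell, beside 4.43% and 3.90% of all probe sets. The median log2 change of the members was -0.01, 0.07 and -0.19 at 6 h, 12 h and 24 h, and that of all probe sets 0.04, 0.04 and 0.02. The shares at 6 h and 12 h were near those of all probe sets, and the share at 24 h was above it by a few genes. Induced and not induced arrays did not overlap for 16, 22 and 24 members at the 3 times (22.9%, 31.4% and 34.3%), compared with 14.7%, 24.0% and 26.5% of all probe sets. The 24 h count fell to 4 without replicate 3 of the not induced 24 h plants and to 5 without replicate 2 or 3 of the induced 24 h plants. The 12 h count was 2 without replicate 1 of the induced or replicate 3 of the not induced 12 h plants, and the 6 h count was 2 without replicate 1 of the induced 6 h plants. The 25S ribosomal RNA control did not overlap between the 6 h groups, with 2013, 550 and 233 in induced and 2891, 2036 and 2626 in not induced plants. With it as a covariate, calls at 6 h over all probe sets went from 220 to 58, and the count of members stayed at 1.

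In all 10 members were called at 1 time or more, 1 of the 23 P450 genes and 9 of the 47 UDP-glycosyltransferase genes, and 60 were called at none. The share of all probe sets called at 1 time or more was not computed, so these counts have no such value beside them. The difference between the families was not tested. CYP78A9 was called at all 3 times, UGT76B1 and UGT76C2 at 12 h and 24 h, and the other 7 at 1 time. At 24 h 8 of 47 UDP-glycosyltransferase members were called (17.0%), 2 higher and 6 lower, and 1 of 23 P450 members, beside 8.33% of all probe sets, 4.43% higher and 3.90% lower. No P450 member was called lower at any time, beside 0.396%, 1.93% and 3.90% of all probe sets at 6 h, 12 h and 24 h. None of the 19 CYP71B genes was called at any time, beside 0.967%, 4.84% and 8.33% of all probe sets. Among these 19 genes the count at an unadjusted p under 0.05 was 2, 5 and 1 at 6 h, 12 h and 24 h (10.5%, 26.3% and 5.26%), where 13.0%, 16.6% and 21.0% of all probe sets had one. Among all 70 members it was 14, 19 and 19 (20.0%, 27.1% and 27.1%). The groups did not overlap for 3, 8 and 5 of the 19 genes (15.8%, 42.1% and 26.3%), beside 14.7%, 24.0% and 26.5% of all probe sets. These shares were not tested.

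**Figure D1:**
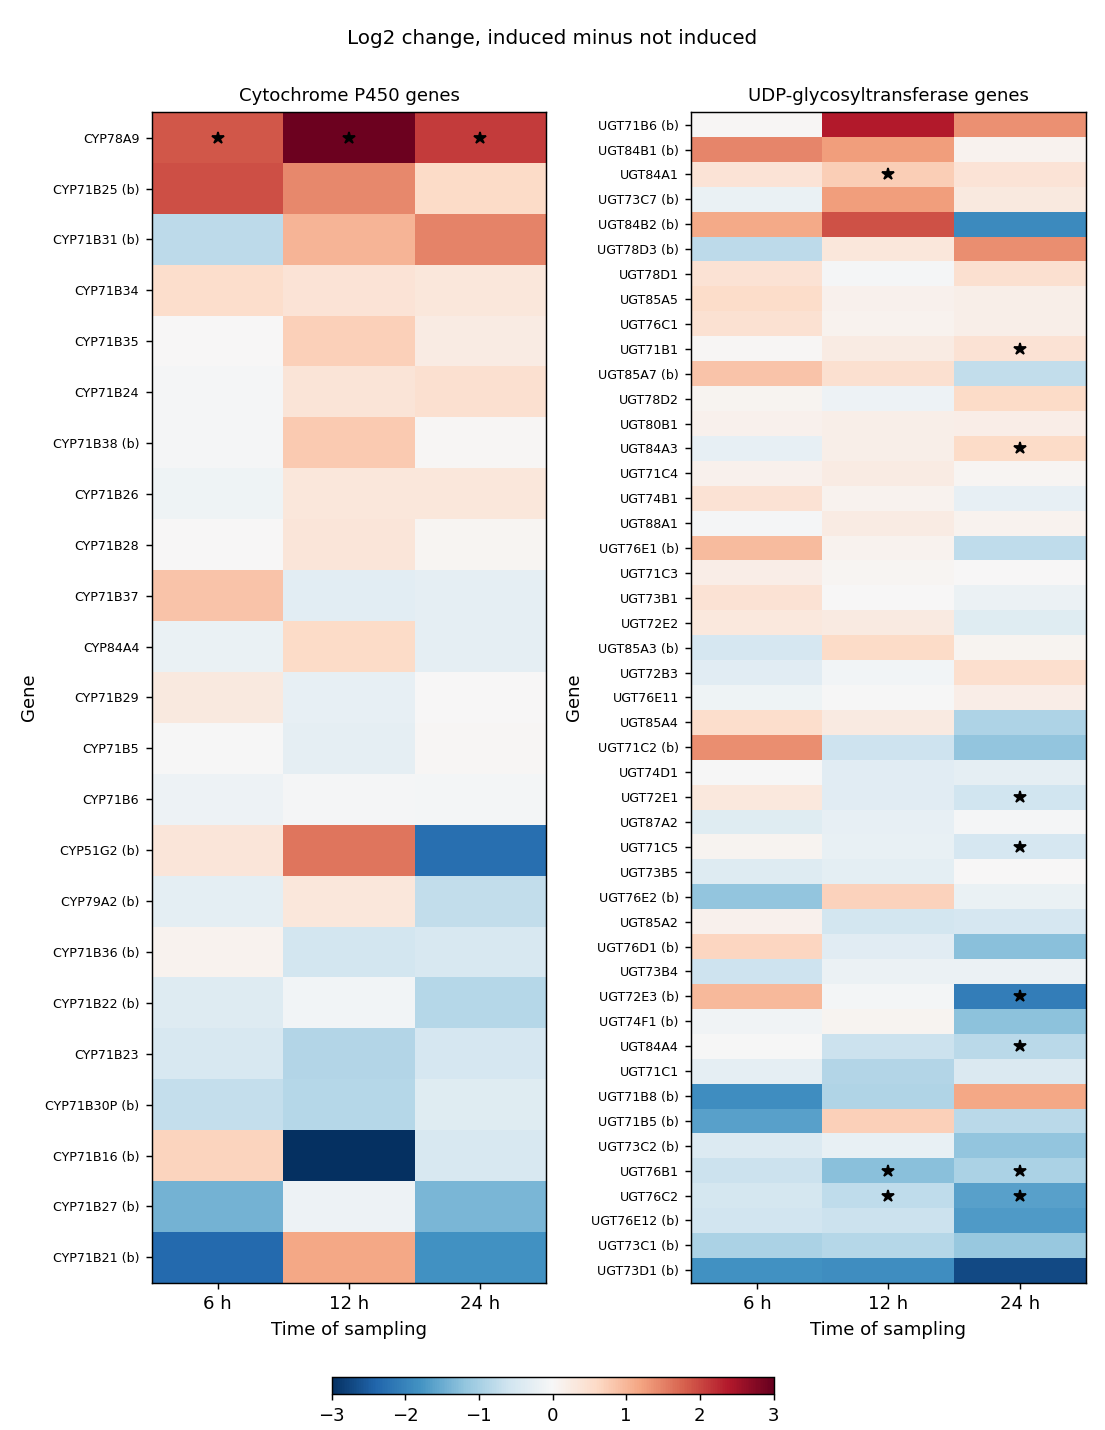
Log2 change, induced minus not induced, of the 23 P450 and 47 UDP-glycosyltransferase members (rows) at 6 h, 12 h and 24 h (columns), with red for higher and blue for lower in induced plants and colours limited to -3 and 3. Stars mark adjusted p under 0.05, and (b) marks members at or below background on 1 or more arrays, which include most of the deepest colours without a star.

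CYP78A9 was the member with the clearest response. CYP78A P450 enzymes promote growth of organs and seeds, and CYP78A9 raises fruit and seed size when overexpressed. At 6 h its signal was 59.1, 68.4 and 91.5 in induced plants and 12.2, 25.4 and 24.6 in not induced plants. At 12 h it was 147, 122 and 130 in induced plants and 14.9, 22.9 and 15.5 in not induced plants. At 24 h it was 88.1, 70.0 and 87.9 in induced plants and 18.3, 17.0 and 22.6 in not induced plants. Every induced array lay above every not induced array, and the level without induction was 12.2 to 25.4 over the 3 times.

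The rise of CYP78A9 was 3.65-fold at 6 h (log2 1.87, SE 0.25, adjusted p = 0.000268), 7.63-fold at 12 h (log2 2.93, adjusted p = 2.3e-07) and 4.25-fold at 24 h (log2 2.09, adjusted p = 1.1e-05) in limma. The rise was numerically highest at 12 h, but its size was not shown to differ between times: the response at 12 h exceeded that at 6 h by a log2 difference of 1.06 (adjusted p = 0.237), while the 24 h response differed from the 12 h response by -0.84 (adjusted p = 0.663). All 3 calls held in each of the 28 alternatives, with an adjusted p of at most 0.0282 at 6 h, 3.42e-05 at 12 h and 0.00037 at 24 h. Of the 6 CYP78A genes listed as organ growth genes only CYP78A9 had a probe set of its own name in the gene table.

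**Figure D2:**
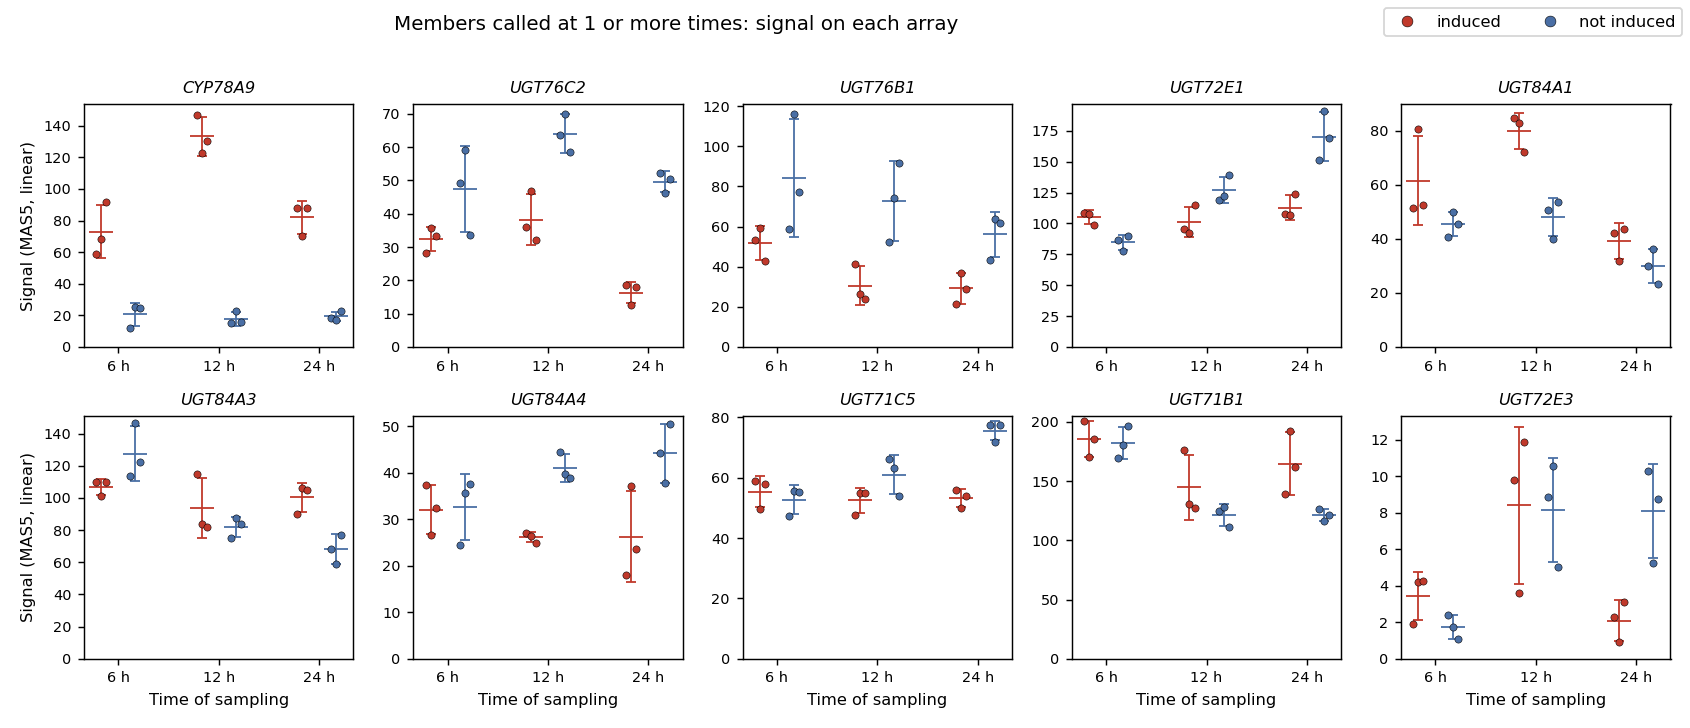
MAS5 signal (linear axis from 0) on each array for the 10 members called at 1 time or more, with induced plants in red to the left of not induced plants in blue at each time. Points are arrays, horizontal bars and whiskers the mean and SD of 3 arrays, and CYP78A9 at every time and UGT76C2 at 24 h show groups that lie far apart.

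The CYP71B members are close relatives, most of them without an assigned substrate. In the RefSeq gene order 11 of them, CYP71B16 to CYP71B37, lie in a single row, each at most 10 places from the next. Of these 11 genes 6 were above background on all 18 arrays and 1, CYP71B16, on none. The brightness of a probe set depends on its sequence, so these levels do not rank the genes. CYP71B26 had 156, 204 and 177 in induced and 145, 142 and 134 in not induced plants at 24 h (log2 0.34, adjusted p = 0.301). None of the 11 was called at any time.

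CYP71B34 in that row was higher in induced plants at every time without overlap. Its signals were 59.8, 82.6 and 82.7 in induced and 49.1, 57.6 and 48.4 in not induced plants at 6 h. They were 102, 94.3 and 84.4 in induced and 75.0, 74.6 and 61.8 in not induced plants at 12 h. They were 93.9, 83.2 and 78.6 in induced and 77.7, 63.2 and 62.8 in not induced plants at 24 h. The log2 changes of 0.53, 0.41 and 0.33 were not called at single times (adjusted p = 0.0894, 0.125 and 0.186), whereas the F test over the 3 times called it (adjusted p = 0.0108). CYP71B37 in the same row had 29.8, 30.7 and 34.0 in induced and 20.0, 16.8 and 15.3 in not induced plants at 6 h, without overlap (log2 0.87, adjusted p = 0.0759). CYP71B35 and CYP71B36, which lie between CYP71B34 and CYP71B37, had log2 changes of 0.02 and 0.10 at 6 h. At 12 h CYP71B37 lay the other way, with 20.2, 21.5 and 19.4 in induced and 26.2, 23.3 and 27.3 in not induced plants (log2 -0.33, adjusted p = 0.525).

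**Figure D3:**
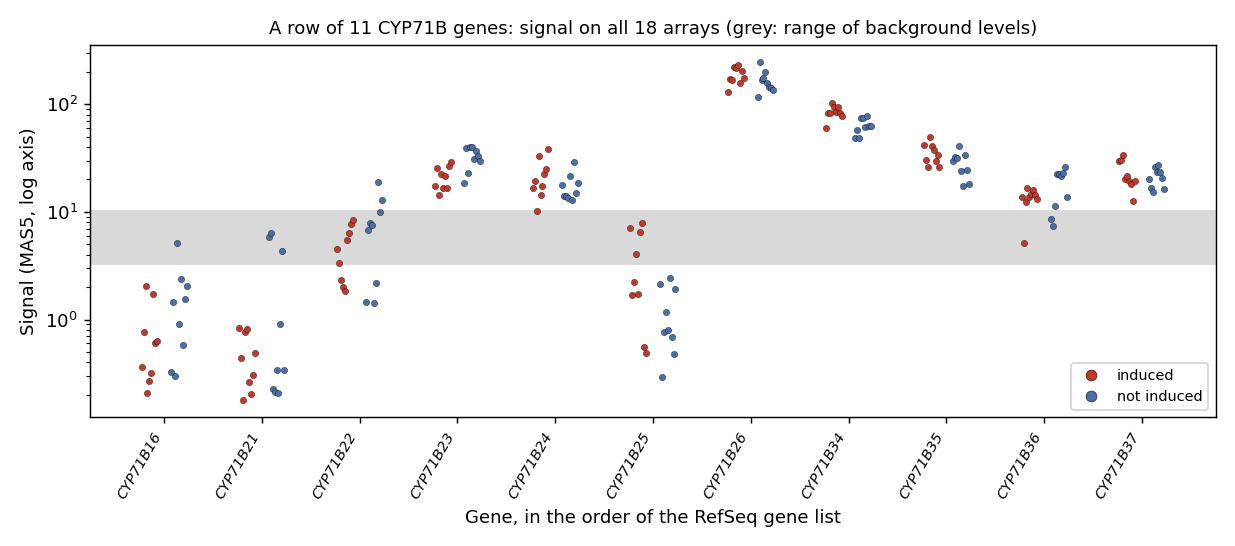
MAS5 signal (log axis) of the 11 CYP71B genes that lie in a single row of the RefSeq gene order, with the 9 induced arrays (red) left of the 9 not induced arrays (blue) for each gene, in the order 6 h, 12 h and 24 h within a colour. The grey band spans the background levels of the 18 arrays, and CYP71B16, CYP71B21 and CYP71B25 lie mostly in or under it.

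The remaining P450 members gave little. CYP71B6, which acts on indole-3-acetonitrile, had log2 changes of -0.16, -0.02 and -0.05, each with an SE of 0.09. CYP84A4, which makes precursors of arabidopyrones, had log2 changes of -0.21, 0.56 and -0.27 (adjusted p = 0.817, 0.325 and 0.662). The transcribed pseudogene CYP51G2, a relative of the sterol demethylase gene, had 2.38, 1.68 and 1.45 in induced plants at 24 h, all at or below background, and 11.2, 6.87 and 8.46 in not induced plants. Not induced plants there averaged 1.35-fold the mean background of the induced arrays. The fit did not call the difference (log2 -2.27, adjusted p = 0.0543). It was called in 7 alternatives (adjusted p = 0.0106 to 0.0443): with 1 median for all arrays, an offset of 5 before the log, array weights or only the arrays compared, and without replicate 1 of the not induced 6 h or replicate 2 or 3 of the not induced 12 h plants.

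Cytokinins are inactivated by N-glucosylation, the reaction of UGT76C1 and UGT76C2, and zeatin is O-glucosylated by UGT73C1. Of these 3 measured members UGT76C2 fell at 12 h and 24 h and the others were not called. At 24 h UGT76C2 had 18.6, 12.6 and 17.9 in induced plants and 52.2, 46.2 and 50.5 in not induced plants. Its groups were separated by more than the whole range of either, and this was the largest fall among the members above background throughout (log2 -1.62, SE 0.21, adjusted p = 3.18e-05), held in all 28 alternatives. At 12 h it had 35.9, 46.7 and 32.0 in induced plants and 63.5, 70.0 and 58.4 in not induced plants (log2 -0.76, adjusted p = 0.0402). At 6 h it had 28.3, 35.6 and 33.3 in induced plants and 49.3, 59.1 and 33.8 in not induced plants, which was not called (log2 -0.52, adjusted p = 0.291). The 12 h call was less firm: it was lost without any single not induced 12 h array, without replicate 1 or 3 of the induced 12 h plants and without replicate 2 or 3 of the not induced 24 h plants (adjusted p = 0.0517 to 0.177), and with the 25S ribosomal RNA control as a covariate, the replicate block or no intensity trend (0.0508 to 0.151). The response of UGT76C2 was not called as different between times: the 24 h response differed from the 6 h response by -1.10 (SE 0.30, adjusted p = 0.0674) and from the 12 h response by -0.86 (adjusted p = 0.55), and the 12 h response from the 6 h response by -0.24 (adjusted p = 0.838).

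UGT76C1, the direct neighbour of UGT76C2 in the gene order, was not called at any time. At 24 h it had 41.7, 36.5 and 32.6 in induced and 37.2, 31.9 and 28.5 in not induced plants (log2 0.18, SE 0.18, adjusted p = 0.625). At 6 h it had 45.0, 45.2 and 40.4 in induced and 35.0, 27.1 and 33.6 in not induced plants, without overlap (log2 0.46, adjusted p = 0.259). The difference between the 2 genes was not tested. UGT73C1 was at or below background on 7 arrays, and its log2 changes of -0.95, -0.85 and -1.13 had an SE of 0.89.

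UGT76B1 glucosylates isoleucic acid and salicylic acid, and so modulates defence signalling. At 12 h it had 41.4, 26.6 and 23.8 in induced and 52.3, 74.0 and 91.8 in not induced plants, a fall of 1.25 on the log2 scale (log2 -1.25, SE 0.27, adjusted p = 0.00788). At 24 h it had 21.4, 37.1 and 29.1 in induced and 43.4, 63.7 and 61.6 in not induced plants (log2 -0.96, adjusted p = 0.031). The groups did not overlap at either time, and at 6 h they did (log2 -0.66, adjusted p = 0.303). The 12 h call was lost without replicate 3 of the induced (adjusted p = 0.0523) or of the not induced 12 h plants (0.0581). The 24 h call was lost without replicate 1 or 3 of the induced or 2 or 3 of the not induced 24 h plants (0.0808 to 0.125), and with the 25S ribosomal RNA control as a covariate or no intensity trend (0.0645 and 0.0866). The other defence members, UGT74F1, which glucosylates salicylic acid, and UGT71C3, which acts on its methyl ester, were not called at any time, with log2 changes at 24 h of -1.22 and 0.01 (SE 0.71 and 0.29).

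Among the glycosyltransferases of phenylpropanoids some genes rose and others fell. The list of monolignol and phenolic enzymes had 7 members, of which 0, 1 and 4 were called at 6 h, 12 h and 24 h, beside 0.967%, 4.84% and 8.33% of all probe sets. At 24 h 1 member rose and 3 fell. UGT72E1, UGT72E2 and UGT72E3 glucosylate monolignols and their aldehydes, the building blocks of lignin, and UGT84A1, UGT84A3 and UGT84A4 form glucose esters of hydroxycinnamic acids. Both rises and falls occurred among the UGT84A genes.

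An eighth measured gene of that list, annotated as GT72B1 and so outside the symbol rule, is named UGT72B1 in RefSeq as well and conjugates chlorinated phenols and anilines. It had 346, 399 and 385 in induced and 265, 275 and 289 in not induced plants at 24 h, without overlap, and rose (log2 0.44, SE 0.13, adjusted p = 0.037). At 6 h and 12 h its log2 changes were -0.00 and -0.10 (adjusted p = 0.997 and 0.767). The 24 h call was lost without any single not induced 24 h array or replicate 2 or 3 of the induced 24 h plants (adjusted p = 0.0718 to 0.139), and with 1 median for all arrays, no intensity trend or the 25S ribosomal RNA control as a covariate (0.0729 to 0.103).

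UGT72E1 fell at 24 h. It had 108, 107 and 124 in induced and 151, 191 and 169 in not induced plants at that time (log2 -0.59, SE 0.11, adjusted p = 0.00173), held in all 28 alternatives. At 12 h it had 95.8, 92.4 and 115 in induced and 119, 123 and 139 in not induced plants (log2 -0.33, adjusted p = 0.109). At 6 h it had 109, 108 and 99.0 in induced and 86.3, 78.1 and 89.8 in not induced plants, the opposite order and again without overlap (log2 0.31, adjusted p = 0.224). The mean over 3 arrays was 105 ± 5.39, 101 ± 12.0 and 113 ± 9.91 in induced plants at 6 h, 12 h and 24 h, against 84.7 ± 6.04, 127 ± 10.6 and 170 ± 19.9 in not induced plants (SD, n = 3 each). The means of not induced plants were thus higher at each later time, whereas those of induced plants lay between 101 and 113. The response at 24 h differed from that at 6 h by -0.90 on the log2 scale (SE 0.16, adjusted p = 0.00603), and this held in all 28 alternatives.

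UGT72E2 had 83.3, 78.2 and 91.3 in induced and 99.7, 102 and 124 in not induced plants at 24 h, without overlap, and was not called (log2 -0.36, adjusted p = 0.111). UGT72E3 was dim. It had 2.28, 0.902 and 3.09 in induced plants at 24 h, all at or below background, and 10.3, 5.26 and 8.75 in not induced plants. The fit called it lower in induced plants (log2 -2.07, adjusted p = 0.0447). Not induced plants averaged 1.21-fold the mean background of the induced 24 h arrays. Their replicate 2 (5.26) lay under the background of each of these arrays (5.93 to 7.05). The call did not hold once signals were raised to background (adjusted p = 0.608) and was lost on leaving out any of 11 arrays: the 3 not induced 24 h arrays, induced 24 h replicates 1 and 2, induced 12 h replicates 1 and 3, not induced 12 h replicates 1 and 2, and induced 6 h replicates 2 and 3 (0.0500 to 0.216). It was lost too with quantile normalization, the replicate block and only the arrays compared.

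The UGT84A genes are neighbours in the RefSeq gene order. UGT84A1 rose at 12 h, with 84.6, 82.9 and 72.2 in induced and 50.7, 40.02 and 53.5 in not induced plants (log2 0.74, SE 0.20, adjusted p = 0.0317). Its log2 changes at 6 h and 24 h were 0.41 and 0.40 (adjusted p = 0.386 and 0.25). The 12 h call was lost without any single induced 12 h array and without replicate 1 or 2 of the not induced 12 h plants (adjusted p = 0.0546 to 0.153), and with quantile normalization, 1 median for all arrays or no intensity trend (0.0509 to 0.0666).

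UGT84A3 rose at 24 h. It had 89.9, 106 and 105 in induced and 68.5, 58.8 and 77.2 in not induced plants (log2 0.56, SE 0.14, adjusted p = 0.0129). At 6 h it lay the other way without overlap, with 110, 101 and 110 in induced and 113, 147 and 123 in not induced plants (log2 -0.25, adjusted p = 0.48). The 24 h call was lost without replicate 2 or 3 of the induced or 2 of the not induced 24 h plants (adjusted p = 0.0618 to 0.0854). The response at 24 h differed from that at 6 h by 0.81 on the log2 scale (SE 0.20, adjusted p = 0.0415). This difference was lost in 12 of 28 alternatives, with an adjusted p of up to 0.121: without any single induced 6 h array, replicate 2 or 3 of the not induced 6 h plants, replicate 2 or 3 of the induced 24 h plants, or replicate 1 or 2 of the not induced 24 h plants, and with the replicate block, the 25S ribosomal RNA control as a covariate or no intensity trend.

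UGT84A4 fell at 24 h. It had 18.1, 37.1 and 23.6 in induced and 44.3, 37.9 and 50.5 in not induced plants (log2 -0.81, SE 0.23, adjusted p = 0.0362), so the groups were separated by a narrow gap. At 12 h the gap was wider, with 27.1, 26.4 and 24.9 in induced and 44.4, 39.7 and 39.0 in not induced plants, and the difference was not called (log2 -0.65, adjusted p = 0.14). The 24 h call was lost without replicate 1 or 3 of either 24 h group (adjusted p = 0.0825 to 0.154), and with the 25S ribosomal RNA control as a covariate, no intensity trend or only the arrays compared (0.0575 to 0.0933).

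**Figure D4:**
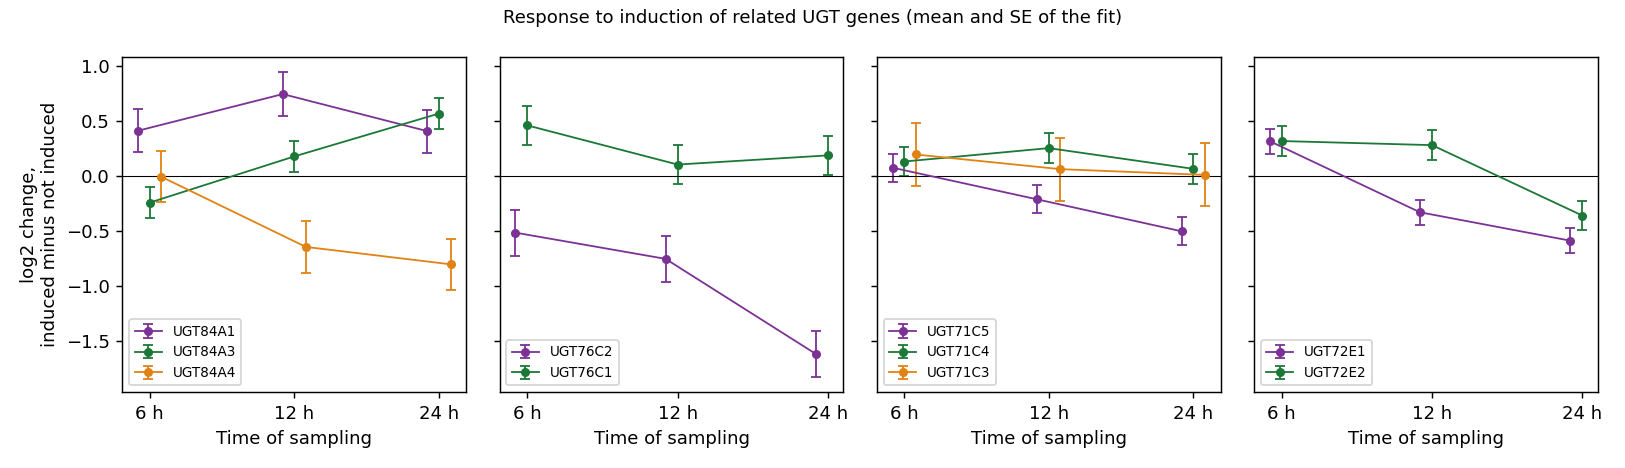
Log2 change, induced minus not induced (points, with bars of 1 SE of the fit), of 4 sets of related UDP-glycosyltransferase genes at 6 h, 12 h and 24 h: UGT84A1, UGT84A3 and UGT84A4, UGT76C2 and UGT76C1, UGT71C5, UGT71C4 and UGT71C3, and UGT72E1 and UGT72E2. UGT84A4 and UGT76C2 lie below 0 at 24 h (-0.81 and -1.62), whereas their neighbours UGT84A3 and UGT76C1 lie above it (0.56 and 0.18).

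Abscisic acid can be stored as its glucose ester, which UGT71C5, UGT71B6 and UGT71B8 form, and UGT73B1 was placed on the same list. UGT71C5 alone of these 4 was called, at 24 h, with 56.0, 49.9 and 53.8 in induced and 77.4, 71.9 and 77.7 in not induced plants (log2 -0.51, SE 0.13, adjusted p = 0.0148). Induced plants averaged 53.3 ± 3.09 at 24 h and 55.4 ± 5.09 at 6 h, and not induced plants 75.7 ± 3.25 and 52.7 ± 4.78 at the same times (SD, n = 3 each). The call was lost without replicate 2 of the induced (adjusted p = 0.0707) or replicate 3 of the not induced 24 h plants (0.0634). The neighbours UGT71C4 and UGT71C3 were not called, with log2 changes of 0.06 and 0.01 at 24 h. UGT71B6 and UGT71B8 were at or below background on 16 of 18 arrays each, and UGT73B1 had a log2 change of -0.18 at 24 h (adjusted p = 0.739).

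UGT71B1, close to UGT71B6 and UGT71B8 in the gene order, was bright and rose at 24 h. It had 139, 192 and 162 in induced and 127, 117 and 122 in not induced plants (log2 0.43, SE 0.13, adjusted p = 0.0418). The call was lost in 13 of 28 alternatives, among them leaving out any not induced 24 h array, replicate 2 or 3 of the induced 24 h plants, replicate 3 of the induced 6 h plants or replicate 1 of the not induced 12 h plants (adjusted p = 0.0507 to 0.230). It was lost too with quantile normalization, 1 median for all arrays, no intensity trend, the replicate block, the 25S ribosomal RNA control as a covariate and only the arrays compared (0.0531 to 0.0992).

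Flavonols receive sugars from UGT78D1, which adds rhamnose, UGT78D2, which adds glucose to flavonols and anthocyanidins, and UGT78D3, which adds arabinose. None of the 3 was called. UGT78D2 had 413, 379 and 441 in induced and 195, 351 and 303 in not induced plants at 24 h, without overlap (log2 0.58, SE 0.20, adjusted p = 0.0772). UGT78D1 had 341, 272 and 303 in induced and 145, 288 and 242 in not induced plants (log2 0.49, adjusted p = 0.145). For both genes replicate 1 of the not induced 24 h plants was the lowest of the 6 arrays. Without it the log2 changes were 0.33 for UGT78D2 (adjusted p = 0.35) and 0.20 for UGT78D1 (adjusted p = 0.579). Without replicate 2 of the same group the 2 genes were called, at 0.75 and 0.70 (adjusted p = 0.0372 and 0.0479). UGT78D2 was called with signals raised to background as well (adjusted p = 0.0431), and UGT78D1 was not (0.0964). With the 25S ribosomal RNA control as a covariate the changes were 0.43 for UGT78D2 and 0.37 for UGT78D1 (adjusted p = 0.200 and 0.324). UGT78D3 was at or below background on 16 arrays.

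The same array was low for the anthocyanin genes outside the symbol rule. UF3GT, an anthocyanin glycosyltransferase that RefSeq also lists under a UGT79B name, had 436, 338 and 469 in induced and 60.2, 226 and 243 in not induced plants at 24 h (log2 1.46, adjusted p = 0.0156). DFR, the dihydroflavonol reductase gene of anthocyanin synthesis, had 669, 560 and 767 in induced and 103, 419 and 435 in not induced plants (log2 1.31, adjusted p = 0.0235). Both rose by this test and without overlap. Leaving out replicate 1 of the not induced 24 h plants gave log2 changes of 0.80 for UF3GT (adjusted p = 0.0619) and 0.63 for DFR (adjusted p = 0.0638). The calls of UF3GT and DFR were lost too without replicate 3 of the induced 24 h plants (0.0716 and 0.0998), with no intensity trend (0.0736 and 0.0934), with the 25S ribosomal RNA control as a covariate (0.0511 and 0.0630) and with only the arrays compared (0.0650 and 0.105). That of DFR was lost without replicate 1 of the induced 24 h plants as well (0.0518). Of 23 listed phenylpropanoid and flavonoid genes 3 were measured under their own name, and DFR alone was called.

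Auxins are glucosylated by UGT74D1 and UGT84B1, and none of the 3 auxin members was called. UGT74D1 was well measured, with 192, 168 and 158 in induced and 195, 194 and 231 in not induced plants at 24 h (log2 -0.26, SE 0.15, adjusted p = 0.343). UGT84B1 and UGT84B2 were at or below background on 14 and 15 of the 18 arrays. UGT74B1, which glucosylates thiohydroximates in the synthesis of glucosinolates, had 382, 498 and 455 in induced and 294, 343 and 340 in not induced plants at 6 h, without overlap (log2 0.44, adjusted p = 0.124). At 24 h its log2 change was -0.24 (adjusted p = 0.327). Of the 18 further glucosinolate genes listed BCAT4, an aminotransferase of methionine chain elongation, was measured, and it fell at 24 h, with 438, 445 and 448 in induced and 696, 686 and 558 in not induced plants (log2 -0.54, adjusted p = 0.00795).

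UGT73B4 and UGT73B5 respond to pathogens and redox stress and lie next to each other. UGT73B4 had 30.8, 43.0 and 29.0 in induced and 47.3, 57.7 and 51.7 in not induced plants at 6 h, without overlap, and was not called (log2 -0.63, SE 0.22, adjusted p = 0.217). At 12 h and 24 h its groups overlapped, with log2 changes of -0.17 and -0.18. UGT73B5 had log2 changes of -0.39, -0.29 and 0.02 (adjusted p = 0.52, 0.604 and 0.983). UGT73D1 had log2 changes of -1.81, -1.87 and -2.71 on low signals, of which 9 of 18 were at or below background. At 24 h it had 1.36, 1.16 and 0.404 in induced plants, all at or below background, and 5.55, 9.10 and 3.51 in not induced plants, 1 of them at background (adjusted p = 0.0639). UGT80B1, a sterol glucosyltransferase of the seed coat, had log2 changes of 0.12, 0.17 and 0.20 with an SE of 0.12.

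Glutathione transferases conjugate reactive compounds beside these enzymes, and both measured of 22 listed fell. GSTU22 had 51.7, 59.9 and 46.4 in induced and 197, 208 and 198 in not induced plants at 24 h (log2 -1.94, adjusted p = 3.87e-09), and log2 changes of -0.58 and -1.35 at 6 h and 12 h (adjusted p = 0.0261 and 7.32e-07). GSTU25 had log2 changes of -0.74 and -0.91 at 12 h and 24 h (adjusted p = 0.000305 and 1.75e-05), and -0.39 at 6 h, which was not called. The calls at 12 h and 24 h held in all 28 alternatives. The 6 h call of GSTU22 was lost in 7, among them leaving out replicate 1 or 3 of the not induced or 2 or 3 of the induced 6 h plants (adjusted p = 0.0579 to 0.171). It was lost too with no intensity trend (0.0844) and only the arrays compared (0.105). With the 25S ribosomal RNA control as a covariate the log2 change of GSTU22 at 6 h was -0.33 (adjusted p = 0.492).

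Over all 3 times together the F test called 12 members, compared with 10.5% of all probe sets. Of these 8 were also called at 1 time or more, and the other 4 were CYP71B34, CYP71B37, UGT73D1 and UGT85A2. UGT85A2 had 58.6, 71.7 and 65.5 in induced and 85.9, 83.6 and 111 in not induced plants at 24 h, without overlap (log2 -0.51, adjusted p = 0.0578; F test adjusted p = 0.0244). The count was 7 without replicate 1 of the not induced 12 h, replicate 1 or 2 of the induced 12 h, replicate 1 of the not induced 24 h or replicate 3 of the induced 24 h plants.

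The response was also compared between times. Between 24 h and 6 h it differed for 2 members, UGT72E1 (-0.90) and UGT84A3 (0.81), compared with 1.61% of all probe sets. This count was 1 without replicate 2 of the induced 6 h, replicate 1 or 2 of the not induced 24 h or replicate 2 or 3 of the induced 24 h plants, and 4 without replicate 1 of the induced 24 h plants. Between 12 h and 6 h limma called 0 members, compared with 0.193% of all probe sets, and 9 members had an unadjusted p under 0.05, as did 10.6% of all probe sets. It called 1 without replicate 1 of the not induced 6 h plants. Between 24 h and 12 h limma called 0 of all probe sets (0.00%). Of the 70 members 10 had an unadjusted p under 0.05, a larger share than the 6.99% of all probe sets, which was not tested.

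Some members changed with time in plants that were not induced. At 12 h against 6 h limma called 4, compared with 2.91% of all probe sets, and 2 of them rose and 2 fell, beside 1.44% and 1.47%. UGT72E1 rose, with a log2 change of 0.58 (adjusted p = 0.00772), whereas UGT84A3 and UGT71B1 fell by 0.63 and by 0.59 (adjusted p = 0.0171 and 0.0158). UGT71C2 had 14.5, 7.08 and 8.55 at 12 h and 1.44, 2.1 and 5.20 at 6 h, where all 3 arrays were at or below background (adjusted p = 0.0462). This call was lost in 20 of 27 alternatives: with signals raised to background (log2 0.59, adjusted p = 0.367), 7 other settings, and on leaving out any of 12 arrays (0.0540 to 0.197), all those of not induced plants except replicate 3 at 6 h among them. The signal of the 25S ribosomal RNA control was 2013, 550 and 233 in induced and 2891, 2036 and 2626 in not induced plants at 6 h, and 244 to 1874 on the later arrays. All 3 not induced 6 h arrays and replicate 1 of the induced 6 h plants thus lay above every later array. With it as a covariate 0 of the 4 calls held, the adjusted p of UGT72E1 being 0.101, and calls over all probe sets went from 663 to 39. The log2 changes were then 0.69 for UGT72E1, -0.67 for UGT84A3, -0.57 for UGT71B1 and 1.76 for UGT71C2. In not induced plants the control was 2036 to 2891 at 6 h and 244 to 573 at 12 h. Time and the control thus cannot be told apart in this contrast. The count of members called was 2 without replicate 2 of the not induced 6 h plants and 1 without replicate 1 of the not induced 12 h plants.

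At 24 h against 12 h without induction UGT88A1 alone was called, where limma called 1.45% of all probe sets and 0.963% as lower. It had 570, 562 and 523 at 24 h and 880, 840 and 783 at 12 h in not induced plants (log2 -0.60, SE 0.09, adjusted p = 0.00109), held in all 28 alternatives. Induced plants had 593, 617 and 562 at 24 h and 891, 1028 and 1036 at 12 h. Induction itself left no call at this gene, with log2 changes of -0.03, 0.24 and 0.10 at 6 h, 12 h and 24 h (SE 0.09 each, adjusted p = 0.935, 0.163 and 0.603).

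Many of the members lie close to each other, as 48 of the 70 fall into 16 groups of neighbours, each at most 10 places from the next in the gene order. Of the 10 members called at a time 6 lie in 4 such groups, and in the UGT84A group alone was more than 1 gene called. There 2 rose and 1 fell, at 12 h or 24 h. In the groups of UGT71C5, UGT71B1 and UGT76C2 the neighbours measured were not called.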

How the data were processed

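The authors deposited linear intensity values, made by MAS5 within GCOS according to the submitters' processing notes. Software versions and scaling are not given in the sources consulted. After 64 control probe sets were removed, 22746 were tested without a filter, of which 13513 have 1 gene in the platform annotation, 503 several and 8730 none. All 70 members matched RefSeq (TAIR10.1) by gene ID, which gave names and gene order only. The brightness of a probe set depends on its sequence, so levels are compared within a probe set. With 3 arrays per group, the number of arrays limits the precision.

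Log2 signals were fitted in limma 3.58.1 (R 4.3.3) with 1 mean per group over 18 arrays and a moderated variance that follows signal (12 residual degrees of freedom, 7.69 prior). Within each contrast the Benjamini-Hochberg adjustment ran over all probe sets tested, with a threshold of 0.05. Where a group was at or below background on all 3 arrays, the other group was set against its mean background, as means of log2 signal. The fit was tested on simulated data. Python 3.11.15 with pandas 2.3.3 and numpy 2.4.6 prepared the tables.

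The members and lists were chosen with earlier results of these data known. The naming rule took called members whose groups do not overlap, members called between times, CYP78A9, UGT73B4, the 5 brightest members and up to 2 members of each role list. It took called partner genes as well. Further members (CYP71B26, CYP71B34, CYP71B37, UGT71C3, UGT71C4, UGT72E2, UGT73B1, UGT73B5, UGT76C1 and UGT85A2), UF3GT and GT72B1 were picked once their values had been seen. The symbol CHI of the phenylpropanoid list matched a chitinase gene and was left out.

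Within a time there was no sign that replicate numbers pair induced with not induced samples. Deviations of arrays with the same number correlated at -0.03 to 0.01, and with other numbers at -0.04 to 0.04. Pairing across times was not examined. Alternatives were 1 median for all arrays, quantile normalization, a filter at the 40th percentile, an offset of 5, signals raised to background, no trend, array weights (statmod 1.5.0), only the arrays compared, the replicate block and each array left out. The 25S ribosomal RNA control as a covariate was added after the data were seen. Promoter and protein sequences were not used here.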

Additional observations from a re-analysis of the deposited data

Results flagged for a closer look

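The response to induction differed between 24 h and 6 h, by the interaction term of the limma fit, for 2 members. For UGT72E1 the difference was -0.90 on the log2 scale (adjusted p = 0.00603), with induced plants above not induced plants at 6 h on every array (log2 0.31) and below them on every array at 24 h (log2 -0.59). For UGT84A3 it was 0.81 (adjusted p = 0.0415), with induced plants below at 6 h (log2 -0.25) and above at 24 h (log2 0.56), again without overlap. The 25S ribosomal RNA control, at 2013, 550 and 233 in induced and 2891, 2036 and 2626 in not induced plants, differed between the 6 h groups that enter both terms. With it as a covariate the difference of UGT72E1 held and that of UGT84A3 had an adjusted p of 0.0602.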

How the results depend on the processing

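Of 21 calls of named members, 7 held in every one of the 28 alternatives, 14 were lost in 1 or more and 0 reversed. Those that held were CYP78A9 at 3 times, UGT76C2 and UGT72E1 at 24 h, the UGT72E1 difference between 24 h and 6 h, and UGT88A1. Of 76 values that were not called, 5 became called in 1 alternative or more (CYP51G2, UGT71C2, UGT73D1, UGT78D1 and UGT78D2, each at 24 h), and 29 changed sign in 1 or more. The cause of these changes was not tested.

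Counts of members called moved as follows. At 6 h (1 as reported) the count was 2 with the filter, the offset, signals raised to background, no trend or array weights. At 12 h (4) it was 2 without the trend and 8 with array weights. At 24 h (9) it was 14 with array weights. Over all times (12) it was 7 without the trend. For the response at 24 h against 6 h (2) it was 5 with the filter or signals raised to background, 1 without the trend and 4 with array weights. Without induction, 12 h against 6 h (4) gave 7 with the offset, 1 without the trend, 0 with the 25S covariate and 2 with only the arrays compared, and 24 h against 12 h (1) gave 2 with the filter or array weights.

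Leaving out single arrays gave 1 to 2 at 6 h, 2 to 6 at 12 h, 4 to 12 at 24 h, 7 to 15 over all times, 0 to 1 and 1 to 4 for the responses at 12 h and 24 h against 6 h, 0 to 0 for 24 h against 12 h, and 1 to 6 and 1 to 1 without induction.

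With the replicate block, which the check of pairing did not support, the counts were 1, 3 and 7 at the 3 times, 8 over all times, 1 for the response at 24 h against 6 h, and 3 and 1 without induction.

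With 1 median for all arrays the split at 24 h was 2 higher and 9 lower, against 3 and 6 as reported, and at 12 h 1 and 3. Quantile normalization gave 2 and 7 at 24 h and 1 and 4 at 12 h. Over all probe sets at 24 h 1 median gave 795 higher and 1163 lower, against 1007 and 887. Signal near background limits 30 members, for which folds are poorly determined.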
